A study of Homo sapiens with 6 samples.

Results

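The genes described here encode the core of the apoptotic caspase machinery, namely the initiator caspases CASP8, CASP9 and CASP10, the executioner-type caspase CASP6, the adaptor FADD, the caspase-8 regulator CFLAR (c-FLIP), and the apoptosome components APAF1 and CYCS (cytochrome c). They were taken by gene symbol from the deposited table, and all 8 symbols were found among its 30267 genes. RNA had been sequenced from SW839, an established renal cell carcinoma (RCC) line, in 3 libraries from cells that carried an shRNA against RNF25 (shRNF25) and 3 libraries from cells that carried the pLKO control vector (shControl). RNF25 is an E3 ubiquitin ligase, and the comparison asks what its knockdown does to gene expression. Both groups were the same line under the same culture conditions, and the study describes lentiviral delivery with puromycin selection for its stable lines. The names of the shRNF25 libraries follow a common pattern that points to a single RNF25 hairpin but does not state it. The series' design text calls the 3 libraries of each group biological replicates, and the study states that its experiments were carried out independently 3 times. The treatment text of the control samples also names the RNF25 plasmid, so that the groups rest on titles, genotype labels and library names.

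In the death receptor pathway of apoptosis, ligand-bound receptors recruit FADD, which gathers the initiator caspases CASP8 and CASP10 through death effector domains. CFLAR enters the same complex and, depending on its isoform and amount, limits or shapes CASP8 activation. In the mitochondrial pathway, cytochrome c leaves the mitochondria and binds APAF1, which assembles into the apoptosome and activates CASP9. Both routes end in effector caspases that cleave cellular proteins. Caspases are made as inactive zymogens, so an RNA level is not a measure of caspase activity. CFLAR is also a classical target gene of NF-κB, the pathway that the study examines.

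CASP10 was the gene of this group that changed. It fell to 32.3% of its control level after RNF25 knockdown, while its close relatives and chromosomal neighbours CASP8 and CFLAR did not pass the test. CYCS lay at the edge of the threshold, and CASP6, CASP9, FADD and APAF1 did not pass it. The values are normalized counts, that is reads counted on a gene divided by a scaling factor of the library, and the groups were compared with limma on log2(normalized count + 1) across the 16554 genes that reached 10 normalized counts in 3 or more libraries. All 8 genes passed that filter. A gene was called when its Benjamini-Hochberg adjusted p, taken over all tested genes, was below 0.05.

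By that rule 1 of the 8 genes was called, lower in shRNF25, and 0 were called higher. Of all tested genes 21.3% were called, 10.8% lower and 10.5% higher. CASP10 also passed the criteria of the study, which add a fold change of at least 1.5, as 15.7% of all tested genes did (7.1% in the lower direction). At an unadjusted p below 0.05 limma gave 3 of the 8 genes, beside 35.4% of all genes. Among the other tools, edgeR called 1 of the 8 lower and DESeq2 called 2, and both called 0 higher. Over all 16554 tested genes edgeR called 1657 lower and 1869 higher, and DESeq2 called 2037 lower and 1838 higher. For 4 of the 8 genes, all lower in shRNF25, the groups were without overlap in normalized counts, and 42.5% of all tested genes showed no overlap, 21.8% in the lower direction. In reads before scaling, CFLAR, CYCS and APAF1 overlapped between the groups and CASP10 did not. The median log2 fold change was -0.19 over the 8 genes and -0.01 over all tested genes. Read against these background shares, the counts do not set the 8 genes apart as a group.

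The libraries were of similar depth, with 18647460 to 19943154 reads counted on genes. The scaling factors split by group and were lower in every shControl library. Totals after scaling were thus 20125904 to 22046042 in shControl and 17668665 to 18250994 in shRNF25. Small differences in normalized counts therefore depend in part on the scaling. After rescaling on genes with a mean of at least 100, the log2 fold changes of CFLAR, CYCS and APAF1 were -0.13, -0.32 and -0.30. RNF25 itself went from 588 ± 92.0 normalized counts in control libraries to 242 ± 25.7 in knockdown libraries (SD, n = 3 each), with no overlap. The control libraries varied more than the knockdown libraries, with a median coefficient of variation over tested genes of 18.2% against 6.70%. Library names follow 1 pattern in shRNF25 and differ among the controls, so knockdown and any batch aligned with it cannot be told apart. The labels of the single libraries do not say at which step they became separate, so p-values measure the spread between these libraries. Of the markers of renal epithelium and RCC, EPCAM, KRT8 and KRT18 were abundant and PAX8 lay between 76.7 and 140.3 in every library, whereas CA9, a hypoxia-inducible marker of clear cell RCC, lay between 1.85 and 50.7, and CDH6, a cadherin of the renal tubule, lay between 0 and 13.0. VIM was the 1 called gene of the 6 tested in that list, and was higher in shRNF25. The summed normalized count of 4 immune markers was 31.3 to 42.1 in shControl and 48.9 to 71.1 in shRNF25, that of 5 fibroblast markers (mostly COL1A1) was 1107 to 1291 and 865 to 1012, and that of 3 endothelial markers was 460 to 678 and 413 to 557. Of these lists ITGAM was called higher, COL1A1 and CDH5 were called lower, and DCN and CD3E were at 0 in at least 1 library. PECAM1 made up most of the endothelial sum. CDH5 went from 125 ± 65.7 in shControl to 5.89 ± 2.34 in shRNF25 (SD, n = 3 each). Its log2 fold change was -4.12 (adjusted p = 0.000213 from limma). The marker genes were named after their values were seen. Their part in the results was not tested. In bulk RNA, fewer cells that express a gene and less RNA per cell cannot be told apart.

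CASP8, CASP10 and CFLAR lie side by side on the plus strand of chromosome 2 in the GENCODE 29 annotation of GRCh38. CFLAR spans chr2:201116104-201176687, CASP10 chr2:201182881-201229406 and CASP8 chr2:201233443-201287711, with 6193 bases between the first pair and 4036 bases between the second. To show how related and how distinct the genes are, the coding stretch around the catalytic site is given from the longest coding transcript of each in GENCODE 29, 5′ to 3′. The capitals mark the codon at the place of the catalytic cysteine.
CASP8: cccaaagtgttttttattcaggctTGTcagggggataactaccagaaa
CASP10: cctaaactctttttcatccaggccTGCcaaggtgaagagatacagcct
CFLAR: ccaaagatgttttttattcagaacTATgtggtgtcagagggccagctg
That codon encodes cysteine in CASP8 and CASP10 and another residue in CFLAR, the long form of which is known as a pseudocaspase. The stretches are bases 1427 to 1474, 1612 to 1659 and 1569 to 1616 of the respective transcripts. Over the whole of these longest transcripts, 0 of the 50-base words of any of the 3 occurred in transcripts of the other 2 genes. A sequence of that length from these transcripts thus tells the 3 genes apart, and words found only in their other transcripts were not taken. For CASP10, 1.07% of the words occurred in transcripts of any other gene.

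CASP10 encodes the second FADD-binding initiator caspase, a gene found in humans and missing in mice. Its normalized count was 164, 175 and 167 in the control libraries and 60.1, 49.9 and 53.4 in the knockdown libraries, given here and in what follows in the order of replicates 1 to 3. The groups lay far apart, and the control libraries were close together, with a coefficient of variation of 3.59%. Mean levels of 169 ± 6.06 and 54.5 ± 5.22 (SD, n = 3 each) made CASP10 3.10-fold lower in shRNF25. On the log2 scale the change was -1.62 (standard error 0.157, 95% interval -1.97 to -1.26, adjusted p = 0.000216 from limma). The values rest on 148 to 171 reads in shControl and 54 to 66 reads in shRNF25. By exact permutation of the 6 values (two-sided) p was 0.1, the smallest p that 3 libraries against 3 allow. Of all tested genes 1.17% had a lower log2 fold change than CASP10. Across the 16 alternative settings and left-out libraries the log2 fold change stayed between -1.70 and -1.55, with a largest adjusted p of 0.00253.

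**Figure D1:**
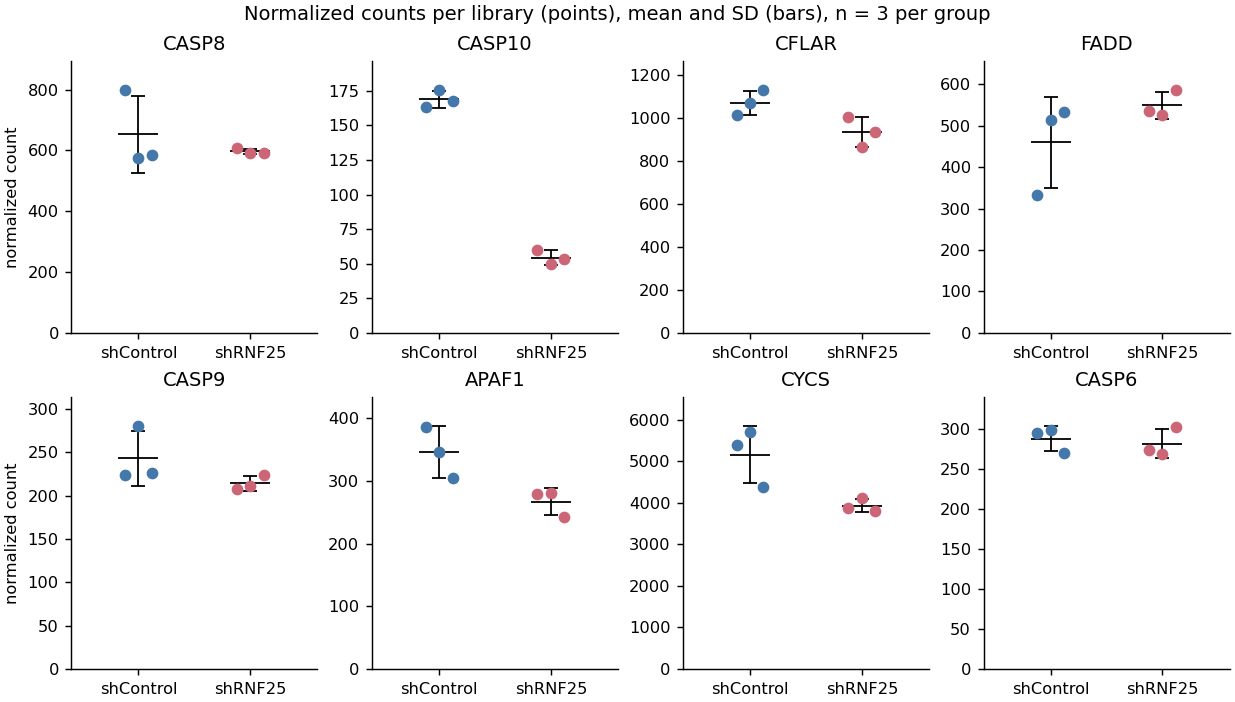
Normalized counts (vertical axes, each from 0) of the 8 genes in the 3 shControl libraries (blue) and the 3 shRNF25 libraries (red), where each point is a library and the bars are the mean and SD. The CASP10 groups are the farthest apart, at 164 to 175 against 49.9 to 60.1, while shControl replicate 1 stands away from the other control libraries for CASP8 and FADD.

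CASP8, the main initiator caspase of the death receptor pathway, had normalized counts of 798, 577 and 584 in shControl and 607, 592 and 593 in shRNF25. Replicate 1 was the high control library, and the shRNF25 values fell between it and the other control values. Its log2 fold change was -0.11 (standard error 0.144, 95% interval -0.44 to 0.21, adjusted p = 0.616 from limma). The interval holds levels from 0.739 to 1.16 times the control, so a change as large as that of CASP10 lies outside it. Without shControl replicate 1 the sign turned, with a log2 fold change of 0.04.

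CFLAR had normalized counts of 1015, 1068 and 1130.0 in shControl and 1005, 863 and 936 in shRNF25. All knockdown values were below all control values, but only narrowly, since shRNF25 replicate 1 at 1005 lay next to shControl replicate 1 at 1015. This gave a log2 fold change of -0.20 (standard error 0.109, 95% interval -0.44 to 0.05, adjusted p = 0.231 from limma), which shrank to -0.11 after quantile normalization. Reads before scaling overlapped, at 918, 1041 and 1047 in shControl and 1103, 935 and 982 in shRNF25. The table has 1 value for the gene, so the long and short c-FLIP isoforms were not resolved. Exons of CFLAR overlap those of CFLAR-AS1 and of the pseudogene IMPDH1P10 on the opposite strand, and the sources used here do not say whether reads were counted by strand. On the same strand the noncoding gene AC007283.1, which has no value in the deposited table, shares 445 exonic bases with CFLAR. CFLAR-AS1 had 14.0 ± 4.09 (SD, n = 3) and 13.6 ± 1.87 (SD, n = 3), a small share of the CFLAR level.

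Because CFLAR is an NF-κB target, the RefSeq promoter windows of the group, which run from 250 bases before to 50 bases after a transcription start, were searched on both strands for the κB consensus. Windows were found for 7 of the 8 genes, 13 in all, and there was none for CASP10. Among them 1 window, at a CFLAR start, held a match, and 11.3% of all 35116 windows did. The 10-base NRF1 motif, known from genes of the respiratory chain, was in 0 of the 13 windows and in 1.24% of all windows. It was searched as an exact sequence without alternative letters, so near matches were not counted. The match and its surroundings, at chr2:201118569-201118678 on the plus strand (GRCh38.p14), are shown with the match in capitals, which begins 97 bases before the start.
CFLAR: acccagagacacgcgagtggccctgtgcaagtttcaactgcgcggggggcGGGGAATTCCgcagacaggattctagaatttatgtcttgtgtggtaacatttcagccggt
A match of letters is a description of the window and does not show that a factor binds there.

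FADD, the adaptor that links death receptors to CASP8 and CASP10, was the only gene of the 8 with a log2 fold change above 0 in the main comparison. It had normalized counts of 334, 514 and 533 in shControl and 537, 526 and 586 in shRNF25. Again shControl replicate 1 stood apart, here as the low library, and the other control values overlapped the knockdown range. The fitted log2 fold change was 0.28 (standard error 0.180, 95% interval -0.12 to 0.69, adjusted p = 0.291 from limma). Without shControl replicate 1 it was 0.07. FADD spans chr11:70203163-70207390 and shares exonic sequence with an antisense gene that was not analysed here.

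**Figure D2:**
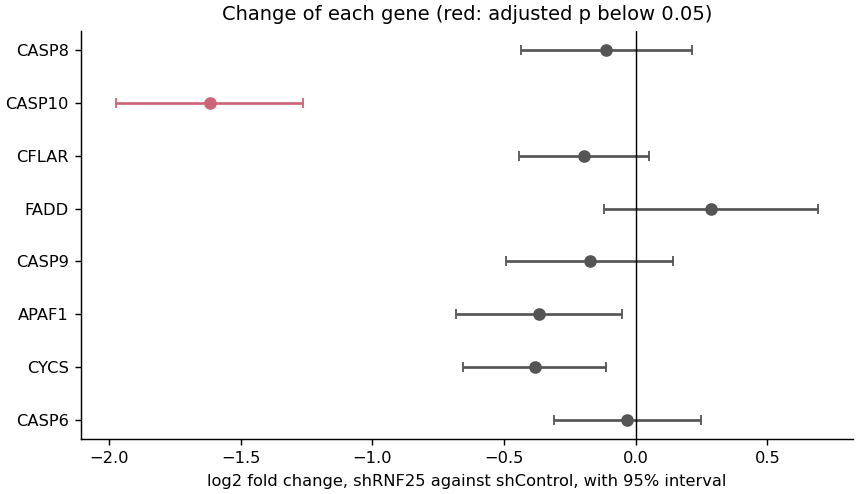
Log2 fold change of the 8 genes (horizontal axis, shRNF25 against shControl) with the 95% interval from limma, in red for an adjusted p below 0.05. CASP10 at -1.62 is the red point, and the intervals of APAF1 and CYCS lie below 0 although their adjusted p-values were 0.0921 and 0.0502.

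CYCS encodes cytochrome c, which carries electrons in the respiratory chain and triggers apoptosome assembly once it is released. It had normalized counts of 5396, 5695 and 4387 in shControl and 3888, 4107 and 3801 in shRNF25. The knockdown libraries were all lower, at 76.2% of the control mean, although shControl replicate 3 at 4387 lay close to shRNF25 replicate 2 at 4107. In reads before scaling the groups overlapped, at 4065 to 5551 in shControl and 3988 to 4447 in shRNF25. For CYCS the log2 fold change was -0.38 (standard error 0.120, 95% interval -0.66 to -0.11, adjusted p = 0.0502 from limma). The call turned on small choices, since the adjusted p was 0.0490 with a pseudocount of 5, 0.0278 with DESeq2 and 0.0333 with library weights by group, but 0.0608 with edgeR and 0.162 after quantile normalization. Without shControl replicate 1 the log2 fold change was -0.35 (adjusted p = 0.0334 from limma), and without shControl replicate 3 it was -0.50 (adjusted p = 0.0109 from limma). CYCS lies at chr7:25120091-25125361, and, of all 50-base words in the longest coding transcript of CYCS, 2.42% also occur in 5 annotated CYCS pseudogenes, with which reads could have been exchanged or lost.

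APAF1, the scaffold of the apoptosome, had normalized counts of 387, 347 and 304 in shControl and 279, 281 and 242 in shRNF25. The groups did not overlap in normalized counts, and the knockdown mean was 77.2% of that in shControl. In reads before scaling the groups overlapped, at 282 to 350 in shControl and 254 to 306 in shRNF25. For APAF1 the log2 fold change was -0.37 (standard error 0.139, 95% interval -0.68 to -0.05, adjusted p = 0.0921 from limma). Without shControl replicate 3 it was -0.46 and passed the threshold (adjusted p = 0.0441 from limma). APAF1 lies at chr12:98645141-98735433, where exons of ANKS1B overlap it on the other strand.

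CASP9, the caspase that the apoptosome activates, had normalized counts of 223, 280.1 and 227 in shControl and 208, 211 and 224 in shRNF25. The ranges touched, with the highest knockdown value just above the lowest control value. For CASP9 the log2 fold change was -0.17 (standard error 0.141, 95% interval -0.49 to 0.14, adjusted p = 0.410 from limma), and without shControl replicate 2, the high control library, it was -0.07. CASP9 lies at chr1:15490832-15526534.

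CASP6, which cleaves nuclear lamin A and other substrates, had the log2 fold change nearest to 0 of the 8 genes. It had normalized counts of 295, 299.6 and 271 in shControl and 274, 269.7 and 303 in shRNF25, and the ranges of the groups largely coincided. This log2 fold change was -0.03 (standard error 0.124, 95% interval -0.31 to 0.25, adjusted p = 0.881 from limma), and its sign turned in 3 of the 16 alternatives, with values up to 0.03, one of them without shRNF25 replicate 2 (0.0003). CASP6 lies at chr4:109688622-109703583.

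The position of CASP10 between CFLAR and CASP8 made it possible to compare it with its surroundings. Within 500 kb of the block formed by the 3 genes, 18 genes were tested, and CASP10 was the 1 called gene. Of all tested genes 21.3% were called and 35.4% had an unadjusted p below 0.05 in limma. Of the 15 other tested genes beside the 3, 0 were called by limma, edgeR or DESeq2, and 2 had an unadjusted p below 0.05 in limma (CLK1 and STRADB, named after their values were seen, at 0.35 and 0.37). Their log2 fold changes ran from -0.33 to 0.45 with a median of 0.02. The nearest tested genes outside the block were NDUFB3 (a respiratory chain subunit) on the CFLAR side, at 0.05, and TRAK2 (a mitochondrial transport adaptor) on the CASP8 side, at -0.07. Neither passed the test, with adjusted p-values of 0.817 and 0.794 from limma.

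**Figure D3:**
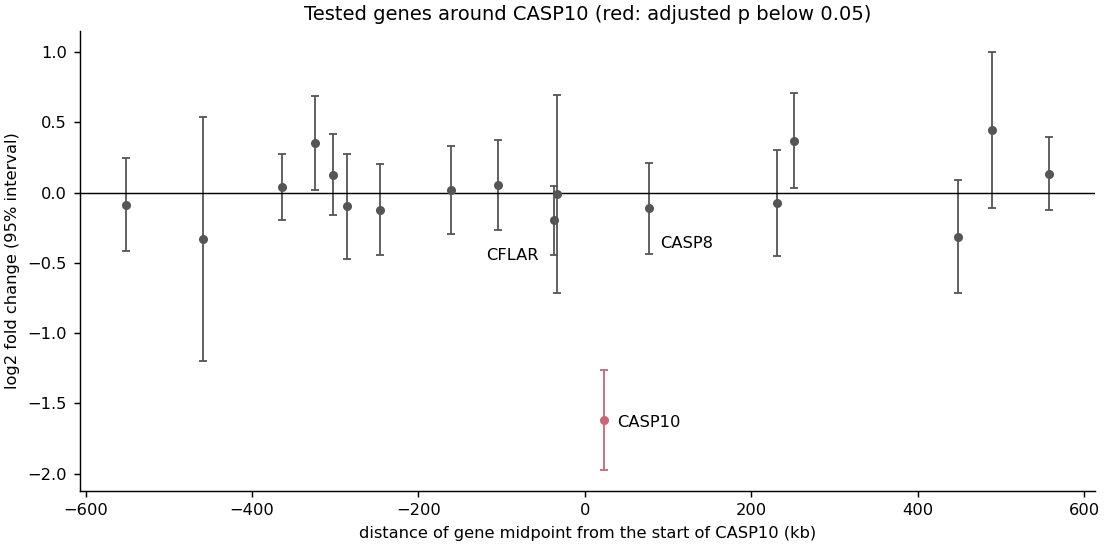
Log2 fold change with 95% interval (vertical axis) of the 18 tested genes within 500 kb of the CFLAR, CASP10 and CASP8 block, plotted by the distance of the gene's midpoint from the start of CASP10 in kb. CASP10 at -1.62 is the point in red (adjusted p below 0.05), and the other 17 genes lie between -0.33 and 0.45.

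The proteins of this group act in pairs within complexes, so the ratio of partners, each as normalized count + 1, was computed in each library, where the library scaling nearly cancels. The log2 ratio of CASP10 to CASP8 was -2.28, -1.71 and -1.80 in shControl and -3.31, -3.54 and -3.45 in shRNF25. Its geometric mean was 0.263 CASP10 counts for each CASP8 count in shControl and 0.0924 in shRNF25, on a scale not corrected for gene length. The difference was -1.51, with no overlap between the groups. The two-sided exact permutation p was 0.1, the smallest possible, and 0.4 after Benjamini-Hochberg adjustment over the 4 ratios examined. The other ratios overlapped between the groups. CFLAR to CASP8, the balance that is often used to describe sensitivity to death receptors, was 0.73 ± 0.33 and 0.64 ± 0.09 on the log2 scale in shControl and shRNF25 (SD, exact permutation p = 0.7, n = 3 each). By library it was 0.35, 0.89 and 0.95 in shControl and 0.73, 0.54 and 0.66 in shRNF25. Without shControl replicate 1 the groups were apart and the difference went from -0.09 to -0.28 (exact permutation p = 0.1). Without shControl replicate 3 the difference was 0.0258. FADD to CASP8 was -0.52 ± 0.64 and -0.12 ± 0.09 (exact permutation p = 0.6, n = 3 each), where shControl replicate 1 stood apart at -1.25, and without it the difference went from 0.40 to 0.03. APAF1 to CASP9 was 0.51 ± 0.25 and 0.31 ± 0.18 (exact permutation p = 0.4, n = 3 each), and its difference of -0.19 went to -0.05 without shControl replicate 1 and to -0.09 without shRNF25 replicate 3.

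**Figure D4:**
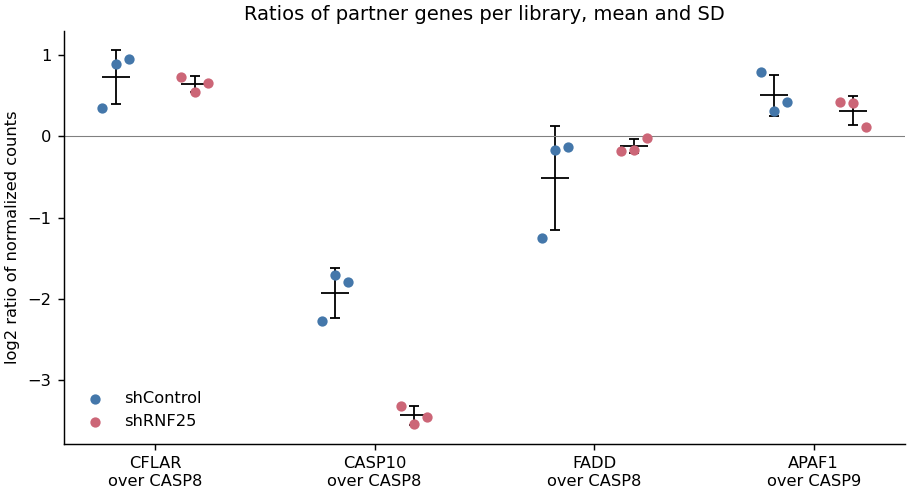
Log2 ratio of normalized counts of 4 pairs of partner genes (vertical axis) in each shControl (blue) and shRNF25 (red) library, with mean and SD. The groups are apart for CASP10 over CASP8, around -1.93 and -3.44, and overlap for the other pairs.

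Levels of different genes were compared per kilobase of annotated exon (GENCODE 29, union of all transcripts), which understates genes with long or rarely used exons such as CFLAR. In shControl the order was CYCS at 1158 ± 154 normalized counts per kilobase (SD, n = 3), FADD at 250.1 ± 59.7, CASP6 at 149 ± 7.95, CASP8 at 90.1 ± 17.4, CFLAR at 47.5 ± 2.56, CASP9 at 46.2 ± 6.05, APAF1 at 43.8 ± 5.22 and CASP10 at 22.2 ± 0.798. Cytochrome c RNA thus exceeded that of its partner APAF1 many times. The ranges of CFLAR and CASP9, and of CASP9 and APAF1, overlapped, and the other neighbours in the order were apart. In shRNF25 the order was the same, from CYCS at 882 ± 35.3 to CASP10 at 7.17 ± 0.687, and CFLAR and CASP9 were the neighbours whose ranges overlapped. CASP10 was the lowest gene of the group in both conditions, and the distance to the next gene grew, with APAF1 at 33.8 ± 2.75 in shRNF25.

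The genes whose profile over the 6 libraries was most like that of CASP10 were found by the root mean square difference of log2 values after the control mean of each gene had been subtracted. They were MAOA (monoamine oxidase A), with a difference of 0.0519 log2 units, FBXO32 (the ubiquitin ligase subunit atrogin-1), with 0.0686, and MCAM (the adhesion molecule CD146), with 0.0754. Their log2 fold changes were -1.65, -1.61 and -1.58, which lie near that of CASP10 by the way the genes were chosen. For CYCS they were ATIC (a purine synthesis enzyme), with 0.0403, SDCCAG8, with 0.0429, and MLST8 (a subunit of the mTOR complexes), with 0.0449.

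Outside the group, 47 further apoptosis genes in 4 lists put the values in context, of which 45 were in the table and 42 were tested. Among these 8 were called lower, 1 was called higher and 33 were not called. The share called in either direction was close to the 21.3% of all tested genes. By direction the calls were mostly lower, whereas all tested genes were called lower and higher in similar shares. This difference in direction was not tested. In the death receptor list 5 of 12 tested genes fell and 1 rose, where 10.8% and 10.5% of all tested genes did. BID, the caspase-8 substrate that carries the signal to mitochondria, fell by 0.71 on the log2 scale (adjusted p = 0.00264 from limma), and PEA15, a death effector domain protein that can block caspase-8 recruitment, fell by 0.70 (adjusted p = 0.00449 from limma). FAS, the death receptor itself, went from 160 ± 31.0 to 100.3 ± 2.89 (SD, n = 3 each), a log2 fold change of -0.65 (adjusted p = 0.0260 from limma). DEDD2, another death effector domain protein, fell by 0.64 (adjusted p = 0.00857 from limma). The remaining calls, named after their values were seen, were TNFRSF10B (the TRAIL receptor DR5) at -0.43 and RIPK1 (a kinase of the receptor complex) at 0.58. Of the 5 members that fell, FAS, TNFRSF10B and BID are known to promote cell death and PEA15 to inhibit it, and DEDD2 was not sorted here.

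Of the 6 other tested caspases 3 fell, again beside 10.8% of all tested genes. CASP14, the caspase of keratinocyte differentiation, had normalized counts of 1832, 801 and 1027 in shControl and 62.9, 51.7 and 69.6 in shRNF25. The lowest control library stood far above the highest knockdown library, and limma gave a log2 fold change of -4.21 with a standard error of 0.273 (adjusted p = 2.55e-05). CASP1, which processes interleukin-1β, fell by 1.06 (adjusted p = 0.0192 from limma), at a low level of 28.6 ± 5.32 against 13.0 ± 1.23 (SD, n = 3 each). CASP4, the sensor of cytosolic lipopolysaccharide, fell by 0.75 (adjusted p = 0.0104 from limma). CASP2, named after its values were seen, was at 0.29 and did not pass the test (adjusted p = 0.241 from limma). Beside CASP10, the caspases that fell were therefore inflammatory or differentiation caspases, and none of CASP6, CASP8 and CASP9 was called.

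In the mitochondrial list 0 of 12 tested genes were called by limma, edgeR or DESeq2, where limma called 21.3% of all tested genes. Beside 35.4% of all tested genes, 2 of the 12 had an unadjusted p below 0.05 in limma. These were DIABLO at 0.51 and XIAP, an inhibitor of caspases, at -0.35 (named after their values were seen). The list holds BAX and BAK1, which open the outer membrane, the released factors DIABLO and HTRA2, and HCCS, the enzyme that attaches heme to cytochrome c, which lay at -0.06 (these were likewise named after their values were seen). Among 12 tested caspase substrates 0 were called by these tools, and 0 had an unadjusted p below 0.05 in limma, beside the same shares of all tested genes. As a median, the log2 fold change came to -0.21 in the death receptor list, -0.41 in the list of other caspases, -0.06 in the mitochondrial list and 0.05 in the substrate list.

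**Figure D5:**
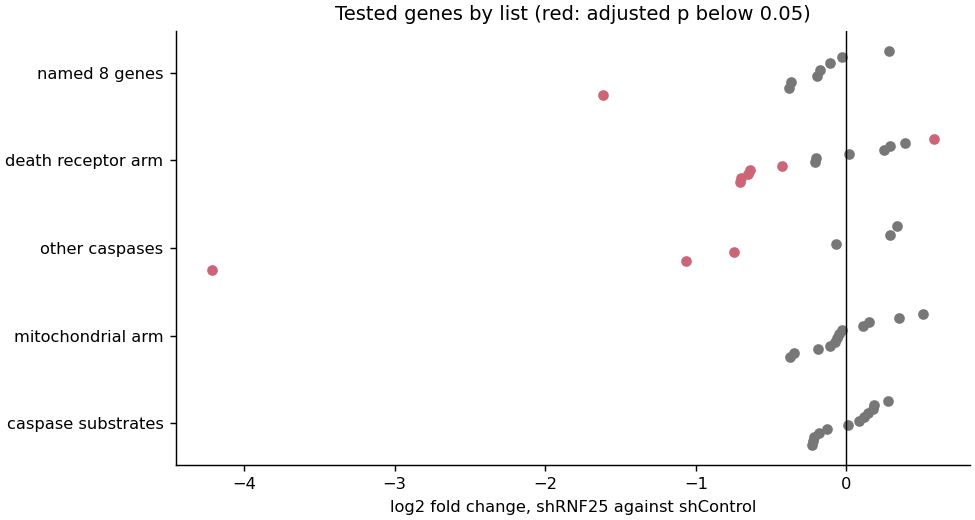
Log2 fold change (horizontal axis) of each tested gene in the group of 8 and in the 4 lists of further apoptosis genes, in red for an adjusted p below 0.05. Red points are found in the upper 3 rows, with CASP14 at -4.21 farthest to the left, and the mitochondrial and substrate rows hold 0.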

How the data were processed

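The authors deposited 1 table of normalized counts, a signal made by dividing the reads on each gene by a scaling factor per library. The submitters' processing notes name fastp, HISAT2, HTSeq and GRCh38, and the paper names DESeq2 and a stranded total RNA kit after ribosomal RNA depletion. The annotation and the strand setting of the counting are not given in the sources used here. Dividing by the smallest step gave whole reads (within 0.1) for 100% of values, with factors from 0.905 to 1.10. Every shControl factor was below every shRNF25 factor. Columns were matched to samples by library name.

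Log2(normalized count + 1) values were fitted with limma 3.58.1 under R 4.3.3 (lmFit, then eBayes with trend) with group as the only term. edgeR 4.0.16 and DESeq2 1.42.0 were run on the recovered reads as alternatives, and all 3 were tested on simulated data. Intervals are limma's 95% intervals. The genes and lists were chosen with earlier results of these data known. Genes beyond the 8 were named if they passed the study's criteria (at most 5 per list), adjoined CFLAR, CASP10 or CASP8, or were among the 3 profiles nearest to CASP10 or CYCS, and others are marked. Alternatives were pseudocounts of 0.5 and 5, no filter, a minimum of 50, quantile normalization, rescaling on genes with a mean of at least 100, library weights by group, a replicate block, stricter folds and leaving out each library. Some genes of the lists are counted but not reported here by name.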

Additional observations from a re-analysis of the deposited data

How the results depend on the processing

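CASP10 kept its direction and its call in all 16 alternatives, and CASP9, CFLAR and FADD kept their direction without passing the threshold. CYCS passed it in 5 alternatives, namely with a pseudocount of 5 (log2 fold change -0.38), DESeq2 (-0.38), library weights by group (-0.38) and without shControl replicate 1 or 3. Each of the first 3 gave 2 lower calls among the 8 genes. Leaving out 1 library gave 1 to 3 such calls (2 without shControl replicate 1 and 3 without shControl replicate 3), with APAF1 between -0.46 and -0.28, CYCS between -0.50 and -0.31, CASP8 between -0.19 and 0.0415 (the latter without shControl replicate 1), CASP6 between -0.0838 and 0.000297, CASP9 between -0.23 and -0.07, the CFLAR to CASP8 ratio difference between -0.28 and 0.0258 (the latter without shControl replicate 3), FADD to CASP8 between 0.03 and 0.59, and APAF1 to CASP9 between -0.29 and -0.05. CASP6 also turned to 0.0339 after rescaling on genes with a mean of at least 100 and to 0.00066 with edgeR. Over all genes there were 1785 lower and 1740 higher calls (1414 and 2013 after rescaling on genes with a mean of at least 100, and 1605 and 1215 with a minimum of 50), and with each library omitted these ran from 860 to 2986 and from 768 to 2612, the highest without shControl replicate 1, while omitting shRNF25 replicates 1, 2 or 3 gave 866, 874 or 860 lower and 768, 842 or 852 higher. Requiring a 1.5-fold change kept 1175 lower genes, and requiring a 2-fold change kept 513 lower and 893 higher, by construction. The cause of the other shifts was not tested. With the replicate number as a block CASP10 stayed at -1.62 (adjusted p = 0.000192 from limma) and CYCS had an adjusted p of 0.0689. Samples with the same number did not deviate together (r across genes from -0.09 to 0.05). With 3 libraries per group these correlations cannot settle whether such samples were prepared together. The CASP10 to CASP8 difference paired by number was -1.51 (exact permutation p = 0.25, the smallest that 3 pairs allow). Depth limits CASP10 and CASP9 most, at 54 to 273 reads per library.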
